A study of Mus musculus with 4 samples.

Results

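The 10 genes described here encode the enzymes of the hepatic methionine cycle and of phosphatidylcholine synthesis, namely Mat1a, Gnmt, Bhmt, Ahcy, Nnmt, Pemt, Chka, Pcyt1a, Chpt1 and Cept1. They were selected by symbol, as every gene spot whose name in the scanner files was one of these symbols, and they are 10 of 30204 gene or transcript names on the array. All 10 were found, by 22 probes of 60 bases. RNA from mouse liver was hybridised to 4 one-colour Agilent arrays, with 1 array for each combination of genotype and feeding label. There were no replicate arrays, so the values below compare single arrays and carry no spread between animals.

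The mice were males of the C57BL/6J strain on a high-fat diet for 24 weeks. Drp1LiKO mice lacked Drp1 in the liver, by an Alb-Cre transgene, whose albumin promoter is active in hepatocytes. Drp1, encoded by Dnm1l, is the dynamin-related GTPase that divides mitochondria. The controls, called Cont, were littermates with the floxed Drp1 alleles and no deletion. A pair of arrays, 1 of each genotype, came from refed mice, which had been fasted for 17 h and then fed for 4 h. The labels of the other two arrays name no feeding state, and they are called the unrefed arrays here. The study describes its liver comparisons as fasted and refed, which would make these the fasted mice, but the labels do not say so. The labels do not give the number of animals behind an array.

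The methionine cycle makes S-adenosylmethionine, the methyl donor of the cell, and returns its product through homocysteine to methionine. The liver holds most of this traffic, and phosphatidylcholine synthesis is among its main uses of methyl groups. Phosphatidylcholine, the main phospholipid of membranes, bile and lipoproteins, is made in the liver by methylation of phosphatidylethanolamine or from choline through the CDP-choline (Kennedy) pathway. Mat1a makes S-adenosylmethionine, Gnmt, Nnmt and Pemt use it, Ahcy clears the product S-adenosylhomocysteine, and Bhmt remethylates homocysteine with betaine. Chka, Pcyt1a and Chpt1 catalyse the successive steps from choline to phosphatidylcholine, and Cept1 carries out the last step for choline and ethanolamine lipids alike.

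The probes below show what was read for the genes with the widest differences or with several probes of like direction, and the Ahcy pair is shown because its direction differed from that of the brightest Ahcy probe. Each is the 60-base sequence from the scanner files, whose positions are on mm9. The exon annotation of that build was not used here. Each sequence has a reading frame without a stop codon over its whole length, as had 17 of the 22 probes. The gene values of Chka, Ahcy and Pemt were read from other, brighter probes, and those of Chka and Ahcy have no such frame. The Chka probe lies at chr19:3864699-3864758 on the plus strand, the Nnmt probe at chr9:48400368-48400427, the Ahcy probes at chr2:154891321-154891380 and chr2:154894644-154894703, the Pemt probe at chr11:59787580-59787639 and the Chpt1 probe at chr10:87951131-87951190, these last on the minus strand.
Chka: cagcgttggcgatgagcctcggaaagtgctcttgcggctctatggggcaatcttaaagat
Nnmt: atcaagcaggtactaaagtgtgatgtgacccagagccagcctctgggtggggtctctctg
Ahcy, first: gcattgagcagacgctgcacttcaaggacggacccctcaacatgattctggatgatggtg
Ahcy, second: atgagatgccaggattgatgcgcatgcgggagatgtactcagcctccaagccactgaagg
Pemt: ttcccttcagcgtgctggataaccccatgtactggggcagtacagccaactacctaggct
Chpt1: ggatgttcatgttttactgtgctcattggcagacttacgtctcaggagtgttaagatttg
The letters AATAAA, which spell the usual polyadenylation signal, were in 4 of the 22 probes, and these are the brightest probes of Ahcy, Bhmt and Pemt and the dimmer of the pair for Chpt1.

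The promoter of Chka is shown because Chka was the one member past 2-fold between genotypes. RefSeq (GRCm38.p6) gave a promoter window for 8 of the 10 genes, with Mat1a and Nnmt unlisted. The stretch printed runs from 250 bases before the Chka start to 30 bases after it, chr19:3851523-3851802 on the plus strand, with matches to the searched motifs in capitals.
Chka promoter: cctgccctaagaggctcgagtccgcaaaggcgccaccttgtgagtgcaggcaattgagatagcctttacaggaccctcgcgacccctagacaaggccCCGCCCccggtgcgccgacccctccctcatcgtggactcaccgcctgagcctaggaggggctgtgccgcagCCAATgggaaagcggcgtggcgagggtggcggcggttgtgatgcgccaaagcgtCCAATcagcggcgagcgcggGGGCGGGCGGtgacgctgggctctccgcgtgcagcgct
The capitals mark GC boxes (GGGCGG) at -153, -8 and -4 and CCAAT boxes at -82 and -28, counted from the start, and the last pair of GC boxes overlaps. The Chka window of 300 bases was 68.7% G and C, against a median of 52.7% over all windows. Of 32851 promoter windows of this length, 35.7% held GGGCGG and 37.4% held CCAAT on either strand. None of the windows of the 8 genes held TGATGNAAN, TGACGTCA, CACGTG or TATAAA, which stood in 3.95%, 1.79%, 7.15% and 13.6% of all windows. These are matches of letters only.

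Levels are given as log2 processed signal relative to the 75th percentile of the gene spots of the same array, so that 0 is that percentile. Between 48.7% and 58.2% of the 43020 gene spots were well above background, and none was saturated. Each gene was read from 1 probe, the one above background on the most arrays and then the brightest, and all 10 genes were well above background on all 4 arrays by that probe. The error given with a difference (±) is the measurement standard error from the scanner's error model, about 0.20 log2 units, so that differences within 0.40 lie inside its 95% range. The Dnm1l probe differed by -0.21 ± 0.20 between the genotypes on the unrefed arrays and by -0.12 ± 0.20 on the refed arrays. The deleted exons were not given in the sources used here, so this probe does not check the genotype. Brighter genes differed between arrays as a body. Among genes with a mean level of 6 or more, the median difference of Drp1LiKO from Cont was -0.34 unrefed and -0.15 refed, and the median difference of refed from unrefed was 0.37 in Cont and 0.53 in Drp1LiKO. Quantile normalization brought these medians to between 0.01 and 0.07. Values for the bright members are therefore given both ways where the direction differs.

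The hepatocyte markers Alb, Ttr, Apoa1, Apob, Cps1 and Hnf4a were well above background on all 4 arrays, and the log2 of their summed level lay between 10.1 and 10.9. Of these, 5 of the 6 were lower in Drp1LiKO in each feeding state, with medians of -0.42 unrefed and -0.46 refed. After quantile normalization the medians were 0.03 and -0.18, so the unrefed direction rested on the scaling. None of the 4 adipocyte markers was above background on any array. In bulk tissue, fewer cells of a type and less RNA per cell cannot be told apart. Among 6 macrophage markers, 4 were higher in Drp1LiKO on the unrefed arrays and 6 on the refed arrays, and the log2 of their summed level lay between 5.22 and 6.48 over the 4 arrays. Of 5 cholangiocyte markers, 2 were above background on all arrays and Epcam on none. Those measured on both arrays were higher in Drp1LiKO, 3 of 3 unrefed and 2 of 2 refed, and the log2 of the summed level was -1.02 in Cont, 0.11 in Drp1LiKO, -0.83 in refed Cont and 0.025 in refed Drp1LiKO. Of the stellate cell markers measured, 4 of 6 were higher in Drp1LiKO unrefed and 2 of 5 refed, with a summed log2 level between 0.54 and 1.57 that was highest in unrefed Drp1LiKO. Picked out after their values were seen, the collagen genes Col1a1 and Col3a1 differed by 1.67 and 1.28 unrefed and by -0.02 and -0.44 refed. The part of these cells in the values below was not tested.

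Chka stood apart from the other members. It was higher in Drp1LiKO than in Cont by 4.73-fold on the unrefed arrays and by 3.19-fold on the refed arrays, whereas no other member differed by 2-fold between genotypes in either feeding state. On the unrefed arrays the other 9 members were lower in Drp1LiKO by the probes used, with values from -0.92 to -0.04. Mat1a, Bhmt and Cept1 were higher after quantile normalization, and Ahcy was at 0.05 by the median over probes. On the refed arrays 4 members were higher and 6 lower by the probes used. Ahcy, among the lower ones, was at 0.33 by the median over probes. Counting differences of 2-fold or more whose brighter signal was well above background, 1 member of 10 passed in each genotype comparison, where 13.2% of 17946 genes did so on the unrefed arrays and 14.4% of 17366 on the refed arrays. Among the 14387 genes that were well above background on all 4 arrays, as these members were, the shares were 6.05% and 7.12%. With 10 members, 1 call is near that background, so the count itself sets the members apart in neither direction.

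**Figure D1:**
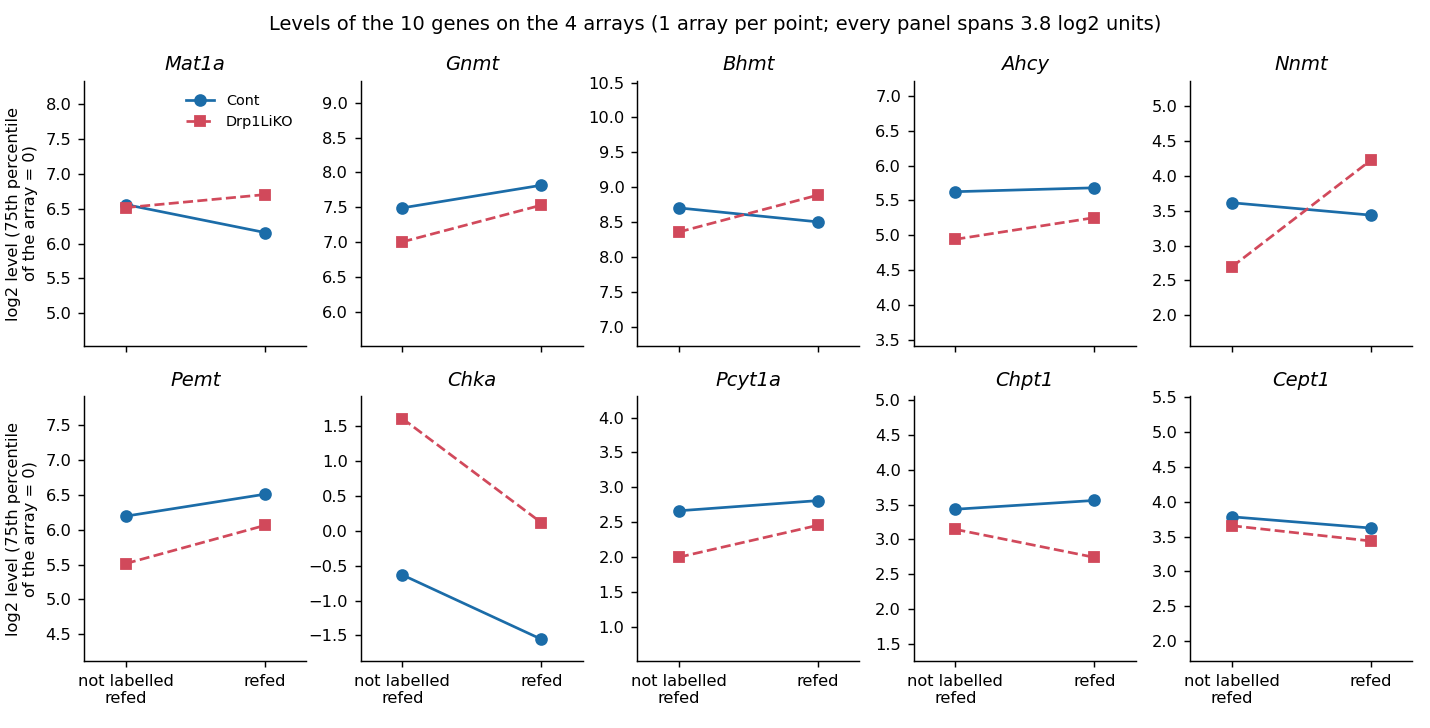
Log2 level (75th percentile of the array = 0) of each of the 10 genes, one panel a gene, on the arrays not labelled refed and the refed arrays. Blue circles are Cont and red squares Drp1LiKO, 1 array a point, and the joining lines only link arrays of a genotype. The Drp1LiKO points lie above Cont on both sides for Chka and change sides for Mat1a, Bhmt and Nnmt.

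With refeeding, no member passed 2-fold in Cont, where 10.3% of 16358 genes did. In Drp1LiKO a pair of members did so, Nnmt upward and Chka downward, against 12.8% of 18237 genes. Of the 14387 genes that cleared background on every array, 3.98% passed in Cont and 5.89% in Drp1LiKO. With 10 members, the lack of a call in Cont is near that background. Whether the pair in Drp1LiKO exceeds it was not tested. Beyond the 95% measurement range were 6 members in the unrefed genotype comparison, where 34.6% of the 14387 genes above background on all arrays were, and 6 in the refed one, against 36.2%. With refeeding there were 2 in Cont, against 27.5%, and 7 in Drp1LiKO, against 41.6%. After quantile normalization the members numbered 3, 5, 2 and 4 in the same order, against 31.1%, 33.2%, 22.3% and 36.1% of genes, so these counts rest in part on the scaling. Each array serves in a genotype and a refeeding comparison, so these comparisons are not independent of each other.

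**Figure D2:**
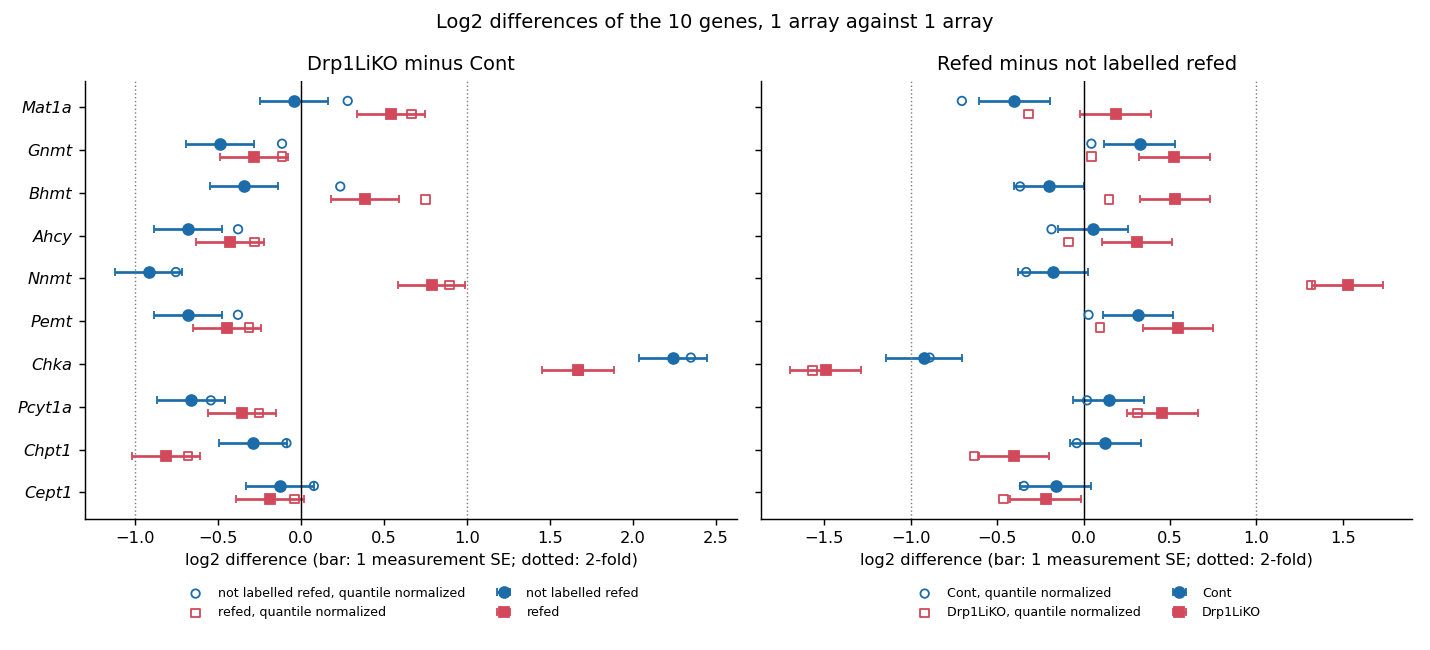
Log2 differences of the 10 genes between genotypes (left) and between refed and unrefed arrays (right). Filled points are values scaled to the 75th percentile with 1 measurement standard error, hollow points are the same differences after quantile normalization, and the dotted lines mark 2-fold. Chka and Nnmt are the genes with points past the dotted lines.

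In the methionine cycle, Mat1a, the liver's S-adenosylmethionine synthetase, was read at chr14:41937140-41937199. Its level was 6.56 in Cont, 6.52 in Drp1LiKO, 6.16 in refed Cont and 6.70 in refed Drp1LiKO. The refed Cont array was the lowest of the 4, and the other three lay close together. Drp1LiKO differed from Cont by -0.04 ± 0.20 on the unrefed arrays, which became 0.28 after quantile normalization, and by 0.54 ± 0.20 on the refed arrays. The refed genotype difference kept its direction under all 7 settings of scaling, background and probe, from 0.54 to 0.67. Here and for the other genes the settings overlap. The authors' values nearly repeat the quantile normalized ones, both 0.67 here, and median scaling moves all genes of an array alike. They are therefore not 7 independent checks. Mat1a has 1 probe, so the setting by the median over probes could not differ from the reported value. Refeeding went with -0.40 ± 0.20 in Cont and with 0.19 ± 0.20 in Drp1LiKO, the latter being -0.32 after quantile normalization.

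Gnmt uses S-adenosylmethionine to methylate glycine and is thought to buffer the supply of the methyl donor. Its probe spans 149 bases of the genome, chr17:46862894-46863042, so that it joins separated stretches. The level was 7.49 in Cont, 7.01 in Drp1LiKO, 7.82 in refed Cont and 7.53 in refed Drp1LiKO. Within each feeding state the Drp1LiKO array was the lower, and within each genotype the refed array was the higher. The genotype difference was -0.49 ± 0.20 unrefed and -0.29 ± 0.20 refed. Both shrank to -0.11 after quantile normalization, and the refeeding differences of 0.32 ± 0.20 in Cont and 0.53 ± 0.20 in Drp1LiKO shrank to 0.05. When each gene was centred on the genes of nearest level, the Cont value was -0.04.

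Bhmt, the betaine-dependent enzyme that remakes methionine from homocysteine, had 4 probes. By the brightest, at chr13:94386856-94386915, its level was 8.70 in Cont, 8.36 in Drp1LiKO, 8.50 in refed Cont and 8.89 in refed Drp1LiKO. Drp1LiKO was thus the lowest array unrefed and the highest refed. The genotype difference was -0.35 ± 0.20 unrefed, or 0.24 after quantile normalization, and 0.38 ± 0.20 refed. The 4 probes gave -0.35 to 0.35 for the unrefed difference, 2 of them above 0, and 0.38 to 1.21 for the refed difference. The upper end of both ranges came from the dimmest probe. Its level in refed Cont was -3.05, near the lowest level above background there, -3.55. The remaining probes gave -0.35 to 0.11 unrefed and 0.38 to 0.96 refed. The unrefed difference of Bhmt therefore had no settled direction, whereas every probe was higher in Drp1LiKO on the refed arrays. Refeeding went with -0.20 ± 0.20 in Cont and 0.53 ± 0.20 in Drp1LiKO.

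Ahcy hydrolyses S-adenosylhomocysteine, the inhibitor that accumulates when methyl groups are used. By its brightest probe, at chr2:154885047-154885106, the level was 5.62 in Cont, 4.94 in Drp1LiKO, 5.68 in refed Cont and 5.25 in refed Drp1LiKO. By that probe the Drp1LiKO arrays were the lower pair, with differences of -0.68 ± 0.20 unrefed and -0.43 ± 0.20 refed. The other two Ahcy probes, printed above, lie 6274 and 9597 bases away and gave 0.10 ± 0.20 and 0.00 ± 0.20 unrefed and 0.26 ± 0.20 and 0.33 ± 0.20 refed. The probe with AATAAA and the pair without it thus differed in direction on the refed arrays, and no direction of Ahcy between genotypes can be given. Refeeding went with 0.06 ± 0.20 in Cont and 0.31 ± 0.20 in Drp1LiKO by the brightest probe, or -0.19 and -0.09 after quantile normalization.

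**Figure D3:**
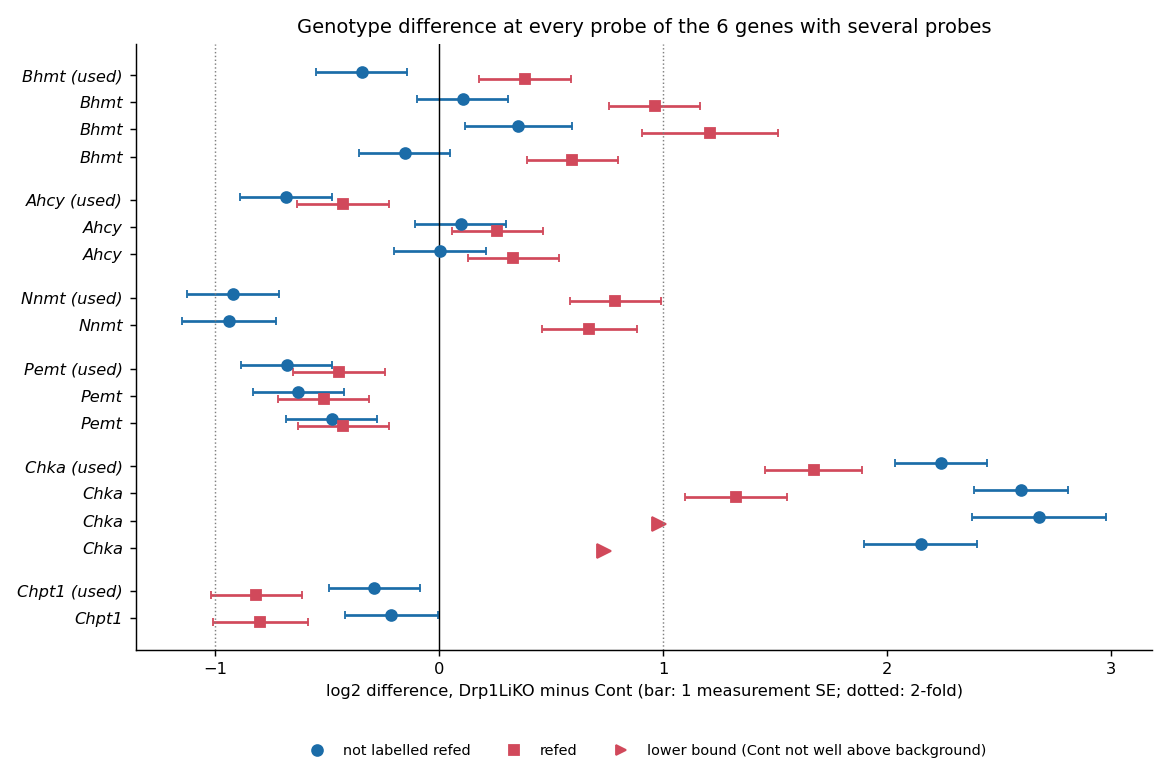
Log2 difference of Drp1LiKO from Cont at each probe of the 6 genes with several probes, unrefed (blue circles) and refed (red squares), with 1 measurement standard error. Triangles are lower bounds, where the refed Cont signal was not well above background. Within a feeding state the probes of Nnmt, Pemt, Chka and Chpt1 lie on the same side of 0, those of Ahcy and, unrefed, of Bhmt on both sides.

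Nnmt and Pemt are methyltransferases that spend S-adenosylmethionine. Nnmt, which methylates nicotinamide, had a level of 3.61 in Cont, 2.70 in Drp1LiKO, 3.44 in refed Cont and 4.22 in refed Drp1LiKO. The Drp1LiKO arrays were the lowest and the highest of the 4, with the Cont arrays between them. Drp1LiKO was lower by -0.92 ± 0.20 unrefed and higher by 0.79 ± 0.20 refed, and refeeding went with -0.18 ± 0.20 in Cont and 1.53 ± 0.20, or 2.88-fold, in Drp1LiKO. The genotype difference moved by 1.71 ± 0.29 between the feeding states, the widest such shift among the 10 genes, and it lay between 1.63 and 1.81 under the 7 settings. The second probe, at chr9:48413168-48413227 and 12800 bases from the first, gave -0.94 ± 0.21 unrefed, 0.67 ± 0.21 refed and 1.28 ± 0.21 for the refeeding of Drp1LiKO. Both probes thus gave the same order of the 4 arrays. With 1 array a group this shift could not be tested.

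A part of the neutrophil markers moved in the same way as Nnmt, and these were picked out after their values were seen. S100a8 and S100a9 differed between genotypes by -1.04 and -1.11 unrefed and by 0.94 and 1.04 refed. Of the other neutrophil markers, Ly6g differed by 0.08 and 0.02 and Csf3r by -0.47 and -0.03. All 4 were above background on all arrays, and the log2 of their summed level lay between 5.78 and 6.53, mostly Csf3r. The part of these cells in the Nnmt values was not tested.

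Pemt, which methylates phosphatidylethanolamine to phosphatidylcholine, joins the methionine cycle to phospholipid synthesis. By its brightest probe, at chr11:59784123-59784182, the level was 6.19 in Cont, 5.51 in Drp1LiKO, 6.51 in refed Cont and 6.06 in refed Drp1LiKO. In both feeding states the Drp1LiKO array was the lower. The difference was -0.68 ± 0.20 unrefed and -0.45 ± 0.20 refed, and it remained below 0 under all 7 settings, with -0.37 as the value nearest to 0 unrefed and -0.31 refed. All 3 Pemt probes lay below 0, from -0.68 to -0.48 unrefed and from -0.51 to -0.43 refed, the probe printed above included. Refeeding went with 0.31 ± 0.20 in Cont and 0.55 ± 0.20 in Drp1LiKO, which shrank to 0.03 and 0.10 after quantile normalization and were -0.05 and -0.02 when centred on the genes of nearest level.

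The CDP-choline pathway begins with Chka, the alpha form of choline kinase, which phosphorylates choline. By the brightest of 4 probes, at chr19:3893508-3893567, its level was -0.63 in Cont, 1.61 in Drp1LiKO, -1.55 in refed Cont and 0.12 in refed Drp1LiKO. From high to low the arrays were Drp1LiKO, refed Drp1LiKO, Cont and refed Cont, and each neighbouring pair was farther apart than the measurement range. Drp1LiKO was higher by 2.24 ± 0.21 unrefed and by 1.67 ± 0.22 refed, which is 4.73-fold and 3.19-fold. Refeeding went with a lower level in both genotypes, by -0.92 ± 0.22 in Cont and by -1.49 ± 0.20, or 2.81-fold, in Drp1LiKO. Under the 7 settings the genotype differences ran from 2.01 to 2.63 unrefed and from 1.27 to 1.72 refed.

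The Chka probes lie as far as 28809 bases from the brightest of them and agreed in direction. Unrefed, they were higher in Drp1LiKO by 2.15 to 2.68. Refed, a second probe gave 1.33 ± 0.23, and 2 probes were not well above background in Cont. Their level in Drp1LiKO was above the lowest measurable level of Cont by at least 0.74 for the probe printed above and at least 0.98 for the remaining one. Both bounds are below 2-fold. The cholangiocyte markers measured on both arrays were likewise higher in Drp1LiKO in both feeding states. Among them Spp1, picked out after its values were seen, differed by 1.40 and 0.77 between genotypes. With refeeding Spp1 differed by -0.22 in Cont and by -0.85 in Drp1LiKO. The other measured cholangiocyte markers did not fall with refeeding. Of those measured on both arrays, 1 of 2 was higher in Cont and 3 of 4 in Drp1LiKO, Spp1 being the lower one. The part of these cells in the Chka values was not tested.

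Pcyt1a activates phosphocholine with CTP, the step that sets the pace of the pathway. Its level, by a single probe at chr16:32472042-32472101, was 2.66 in Cont, 2.0 in Drp1LiKO, 2.81 in refed Cont and 2.45 in refed Drp1LiKO. The Cont arrays were the higher pair. Drp1LiKO differed by -0.67 ± 0.20 unrefed and by -0.35 ± 0.20 refed, the latter inside the 95% measurement range. All 7 settings gave values below 0 for both, although with a single probe the median over probes could not differ from the reported value. Refeeding went with 0.15 ± 0.20 in Cont and 0.46 ± 0.20 in Drp1LiKO.

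Chpt1, the cholinephosphotransferase of the last step, had a level of 3.43 in Cont, 3.14 in Drp1LiKO, 3.56 in refed Cont and 2.74 in refed Drp1LiKO by the probe printed above. The refed Drp1LiKO array was the lowest. The genotype difference was -0.29 ± 0.20 unrefed and -0.82 ± 0.20 refed, and a second probe 14297 bases away gave -0.21 ± 0.21 and -0.80 ± 0.21. Refeeding went with 0.13 ± 0.20 in Cont and -0.40 ± 0.20 in Drp1LiKO. The Cont value was -0.04 after quantile normalization.

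Cept1, which completes both phosphatidylcholine and phosphatidylethanolamine, varied the least. Its level by 1 probe at chr3:106305927-106305986 was 3.78 in Cont, 3.66 in Drp1LiKO, 3.62 in refed Cont and 3.44 in refed Drp1LiKO. All 4 differences, from -0.22 to -0.13, were inside the 95% measurement range. After quantile normalization the genotype differences were 0.08 unrefed and -0.04 refed. The refeeding differences were then -0.34 in Cont and -0.46 in Drp1LiKO, the latter outside that range. The 95% range of the refed genotype difference, -0.19 ± 0.20, extends 0.40 to either side.

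**Figure D4:**
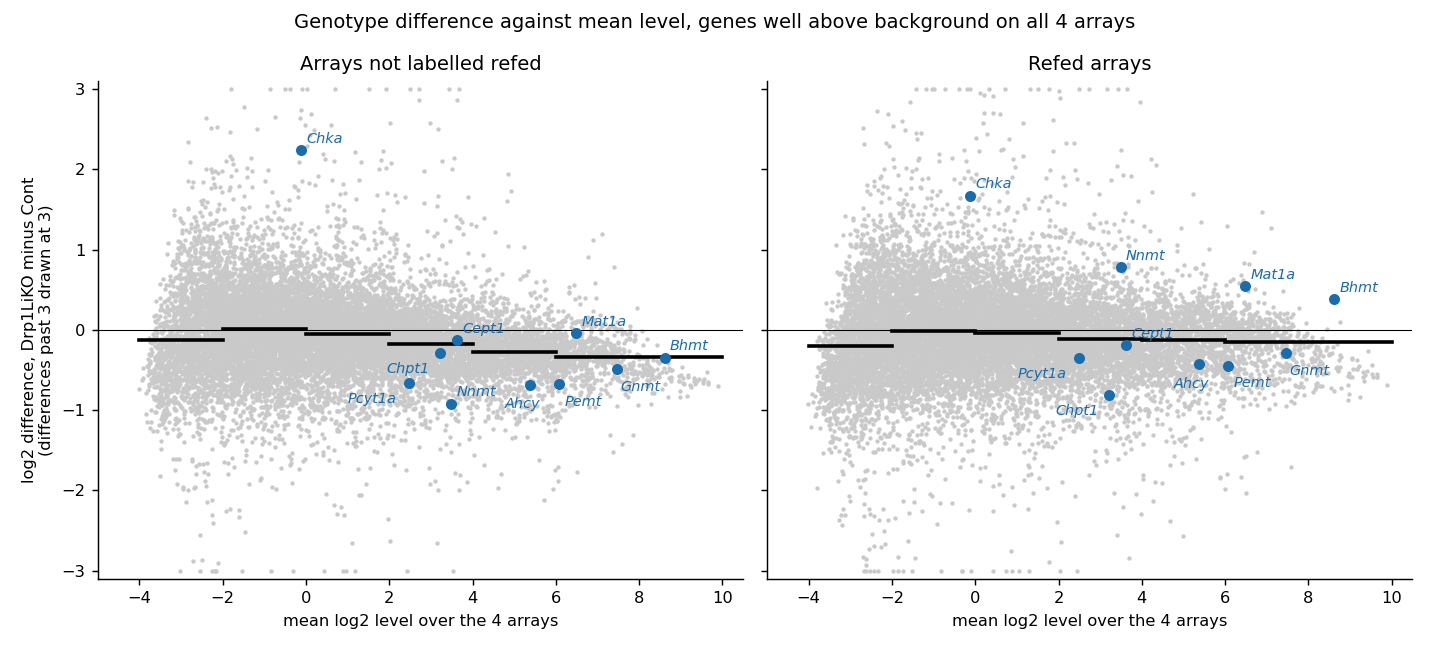
Log2 difference of Drp1LiKO from Cont against the mean log2 level over the 4 arrays, for 14387 genes well above background on all of them (grey), with the 10 members in blue. Black lines are the median difference of genes in each band of level. Differences past 3 are drawn at 3. Chka lies far above its band in both panels, and the brightest band is itself below 0, at -0.34 unrefed and -0.15 refed.

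An additive model of genotype and feeding label was fitted over the 4 arrays with limma, which leaves 1 residual degree of freedom and counts any dependence of the genotype difference on feeding as error. Of 16663 genes, 0 (0%) passed a Benjamini-Hochberg adjusted p of 0.05 for genotype and 0 (0%) for refeeding, with 4738 and 4415 at an unadjusted p under 0.05. For Chka the limma genotype term was 1.96 ± 0.20 (adjusted p = 0.0914), and it was the smallest adjusted p among the 10 genes. In limma fits under 8 settings its adjusted p ranged from 0.0238 to 0.319 and was under 0.05 in 4 of them, the lowest being the fit on genes above background on all 4 arrays. That fit called 1232 of 14387 genes for genotype and 16 for refeeding. For the other 9 genes no setting of the limma fit gave an adjusted p under 0.05 for genotype, the lowest being 0.0748 for Pemt and 0.0780 for Ahcy. The refeeding term passed for none of the 10 genes under any setting, and for Chka it was -1.21 ± 0.20 (limma, adjusted p = 0.167).

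The neighbouring pathways were read from 8 lists of 63 genes, of which 62 were on the array. Of 57 measured on both arrays, 22 were higher and 35 lower in Drp1LiKO unrefed, with a median of -0.16, and 18 were higher and 39 lower refed, with a median of -0.30. Over all genes whose brighter signal was well above background, the medians were -0.08 and -0.04. Of these genes, 56.3% were lower unrefed and 53.9% refed. Counted by the same rule, 59.3% of the listed genes were lower unrefed and 68.4% refed. The unrefed share of the lists was thus near that of all genes. After quantile normalization the medians of the lists were -0.02 and -0.21, against 0.01 and 0.03 over all genes.

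**Figure D5:**
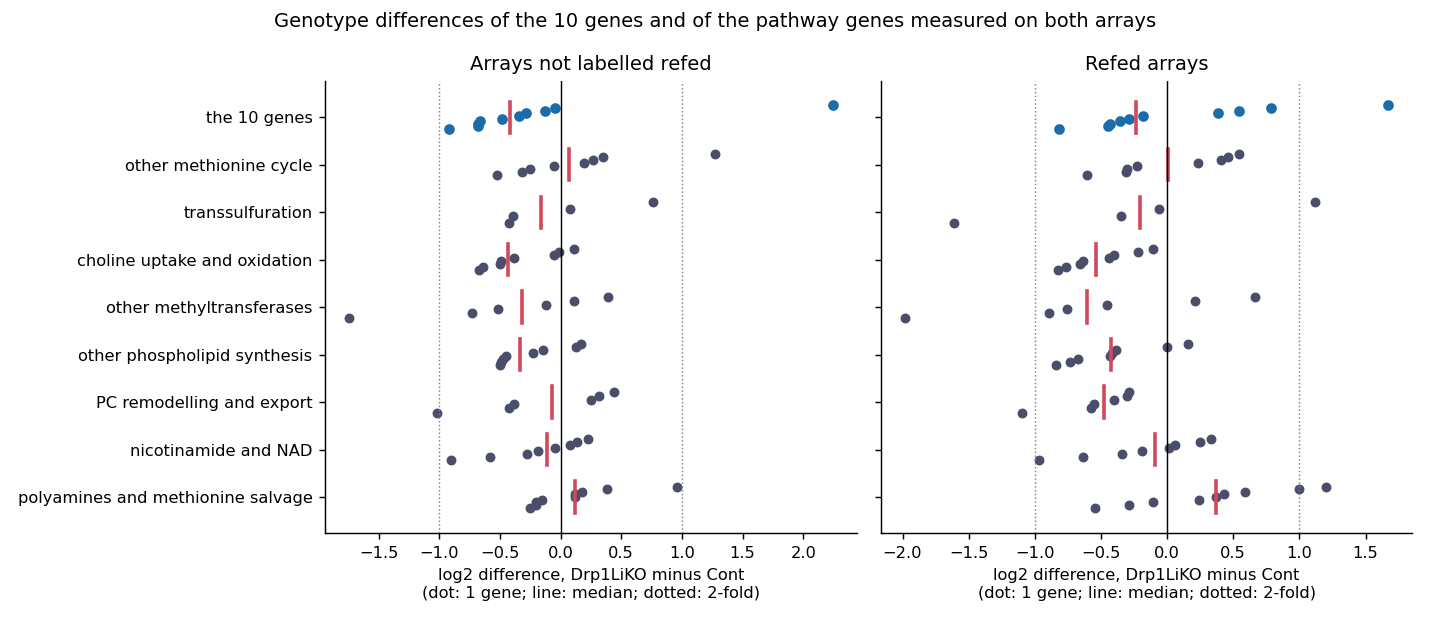
Log2 difference of Drp1LiKO from Cont for the 10 genes (blue, top row) and for the pathway genes measured on both arrays (dark dots, 1 a gene), by list, unrefed on the left and refed on the right. Red lines are medians and dotted lines mark 2-fold. All 8 genes of choline uptake and oxidation and all 6 measured genes of PC (phosphatidylcholine) remodelling and export lie below 0 on the refed arrays.

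Choline can also be oxidised to betaine, which feeds Bhmt, and 7 of 8 genes of choline uptake and oxidation were lower in Drp1LiKO unrefed and 8 of 8 refed. None reached 2-fold, and their medians were -0.44 and -0.54, or -0.12 and -0.38 after quantile normalization. Chdh, the choline dehydrogenase, differed by -0.05 ± 0.20 and -0.82 ± 0.20. Its 3 probes gave -0.21 to -0.05 unrefed and -0.82 to -0.37 refed. The refed direction was thus shared, but its size rested on the probe, and the smallest refed value lay within 0.40.

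Among the 8 measured other genes of the methionine and folate cycles, 4 were higher and 4 lower in each feeding state. Mat2a, the S-adenosylmethionine synthetase of most other tissues, differed by -0.52 ± 0.20 and -0.61 ± 0.20, and its second probe by 0.30 and 0.06. The direction of Mat2a therefore rested on the probe.

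Homocysteine leaves the cycle through transsulfuration, whose 4 genes did not share a direction. Cth, the cystathionine gamma-lyase, was at 4.14 in Cont, 4.91 in Drp1LiKO, 3.72 in refed Cont and 4.83 in refed Drp1LiKO. Both Drp1LiKO arrays were above both Cont arrays, by 0.76 ± 0.20 unrefed and 1.11 ± 0.20 refed. Csad, which decarboxylates cysteine sulfinate on the way to taurine, was at 3.74, 3.82, 3.86 and 2.25 in the same order. The refed Drp1LiKO array alone was low, and the genotype difference was 0.07 ± 0.20 unrefed and -1.61 ± 0.20 refed.

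Of 6 other methyltransferases that use S-adenosylmethionine, 4 were lower in Drp1LiKO in each feeding state. Inmt, the indolethylamine methyltransferase, was at 6.63 in Cont, 4.89 in Drp1LiKO, 7.20 in refed Cont and 5.22 in refed Drp1LiKO. It was past 2-fold in both feeding states, at -1.74 ± 0.20 and -1.98 ± 0.20, in the direction opposite to Chka. Gamt, which makes creatine with a methyl group of S-adenosylmethionine, differed by -0.73 ± 0.20 and -0.89 ± 0.20.

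Of the other genes of phospholipid synthesis, 6 of 8 measured were lower in Drp1LiKO unrefed and 7 of 8 refed. Chkb, the beta form of choline kinase, was at 3.06 in Cont, 2.83 in Drp1LiKO, 2.45 in refed Cont and 1.61 in refed Drp1LiKO. Its genotype differences of -0.22 ± 0.20 and -0.84 ± 0.20 were of the opposite sign to those of Chka, and with refeeding it was lower in both genotypes, by -0.60 ± 0.20 and -1.22 ± 0.20, as Chka was. Ptdss1, a phosphatidylserine synthase that draws on phosphatidylcholine, differed by -0.49 ± 0.20, with 0.03 by 1 of its 3 probes, and by -0.73 ± 0.20. Pcyt1b, the paralogue of Pcyt1a, was well above background on 1 array, unrefed Drp1LiKO.

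In phosphatidylcholine remodelling and export, 6 of 9 genes were measured on both arrays, and 3 were higher and 3 lower in Drp1LiKO unrefed, whereas all 6 were lower refed. Gpcpd1, a glycerophosphocholine phosphodiesterase, was at 1.46 in Cont, 0.44 in Drp1LiKO, 0.36 in refed Cont and -0.74 in refed Drp1LiKO. It was past 2-fold in all 4 comparisons, with genotype differences of -1.02 ± 0.20 and -1.10 ± 0.21 and refeeding differences of -1.10 ± 0.21 in Cont and -1.18 ± 0.21 in Drp1LiKO. Stard10, a phospholipid transfer protein, differed between genotypes by -0.42 ± 0.20 and -0.57 ± 0.20. Lpcat1, Lpcat2 and Lpcat4 were not measured on both arrays of any comparison.

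Nicotinamide, the substrate of Nnmt, is also the precursor of NAD, and none of the 8 genes of nicotinamide and NAD handling reached 2-fold. Naprt, the nicotinate phosphoribosyltransferase, differed between genotypes by -0.90 ± 0.20 unrefed and -0.34 ± 0.20 refed. Aox3, an aldehyde oxidase, differed by -0.58 ± 0.20 and -0.97 ± 0.20. Neither differed in opposite directions between the feeding states, as Nnmt did.

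S-adenosylmethionine also feeds polyamine synthesis, from which methionine is salvaged, and 9 of 10 listed genes were on the array. With refeeding 8 of the 9 were higher in Cont and 7 in Drp1LiKO. Srm, the spermidine synthase, was at 2.23 in Cont, 2.08 in Drp1LiKO, 3.48 in refed Cont and 3.91 in refed Drp1LiKO. It was past 2-fold with refeeding in both genotypes, by 1.25 ± 0.20 and 1.84 ± 0.20. Between genotypes Sat1, which acetylates spermidine and spermine, was higher by 0.38 ± 0.20 and 1.20 ± 0.20, and Mtap, the first enzyme of methionine salvage, by 0.96 ± 0.23 and 1.0 ± 0.27.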

How the data were processed

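Total RNA of mouse liver was labelled with Cy3 and hybridised to Agilent whole mouse genome arrays. The deposited scanner files hold background-corrected processed intensity per spot from Agilent Feature Extraction (version 9.5.1.1 per the labels, 10.7.1.1 per the file headers), and probe positions on mm9. The deposited value table of the authors holds linear intensity with the same distribution on every array (median 39.6 each), as after quantile normalization. Quantile normalizing the log2 signals gave values a median of 0.0345 away, and the table served as an alternative. The labels and the study's methods name different RNA kits and array designs. The design in the file headers is that of the labels.

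Groups came from the labels. The study's methods give a slightly shorter fast before refeeding than the design text of the series. The log2 processed signal was taken less the array's 75th percentile over gene spots (461, 722, 357 and 526 for Cont, Drp1LiKO, refed Cont and refed Drp1LiKO), without outlier spots (37 probes left out of 39429), and repeated spots were averaged. The number of arrays limits the precision. A difference of 2-fold or more with the brighter signal well above background was counted. Where the dimmer signal was not above background, a bound against the lowest level above background on that array was used. limma (version 3.58.1, R 4.3.3) fitted genotype and feeding label over genes above background on at least 2 arrays. The script was tested on simulated data. Alternatives were median scaling, quantile normalization, normexp with offset 50, the authors' values, the median over probes, a 1.5-fold threshold and, chosen after seeing the data, centring on the 501 genes of nearest level. Promoter windows came from RefSeq. Genes named from the lists were those past 2-fold the same way in both genotype or both refeeding comparisons and the 2 widest genotype differences of each list. Some genes that this rule names are not reported here. Members and lists were chosen with earlier results of these data known.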

Additional observations from a re-analysis of the deposited data

Results flagged for a closer look

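Genes were marked where the differences in both feeding states, or in both genotypes, lay on opposite sides of 0. With 1 array a group none of these shifts was tested. The genotype difference of Nnmt was larger on the refed than on the unrefed arrays by 1.71 on the log2 scale, and its refeeding difference was larger in Drp1LiKO than in Cont by the same 1.71. The corresponding shift was 0.73 for Bhmt, whose unrefed genotype difference changed direction between probes and with quantile normalization, and 0.59 for Mat1a, whose unrefed genotype difference was -0.04. For Chpt1 the refeeding difference was smaller in Drp1LiKO than in Cont by -0.53, with a Cont value of 0.13 that lay inside the measurement range.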

How the results depend on the processing

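No single-gene value past 2-fold changed sign, but 34 smaller single-gene values under one or other setting and 4 medians did, the medians being the refed genotype one by the median over probes and the Drp1LiKO refeeding one under quantile normalization, the authors' values and centring. Of values for single genes, 282 differed from the reported value by less than the measurement range and 18 by more. Of counts and medians, 63 stayed within it or within 1.5 times and 35 did not, as follows. The median over the 10 genes, in the order genotype unrefed, genotype refed, refeeding in Cont and refeeding in Drp1LiKO, was -0.10, -0.077, -0.26 and -0.020 after quantile normalization and -0.10, -0.076, -0.26 and -0.021 by the authors' values. Centred on genes of nearest level, a setting chosen after seeing the data, it was -0.10, -0.048, -0.32 and -0.11. By the median over probes the genotype values were -0.19 and 0.073. At 1.5-fold, 5 members of 10 passed unrefed, 3 refed and 1 with refeeding in Cont. Among all genes above background, 5054 of 17946, 5229 of 17366 and 3556 of 16358 did so. In the same order, the genes passing were 921, 1067, 721 and 885 with normexp, 5054, 5229, 3556 and 5919 at 1.5-fold, and 871, 1025, 573 and 848 among genes above background on all 4 arrays, which are fewer genes tested. The limma genotype term called 339 genes with median scaling, 511 with normexp, 1232 among genes above background on all 4 arrays, 487 with an intensity trend and 1 without feeding in the model. The refeeding term called 16 among genes above background on all 4 arrays. Apart from the smaller number of genes tested, the causes were not tested.

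No paired analysis was possible because each group has 1 array, so no replicate was left out. Scanner signal near background limits 2 of the 4 Chka probes in refed Cont.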
